A study of Homo sapiens with 6 samples.

Results

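The TNF receptor superfamily, its ligands and the TRAF adaptors were examined in NCI-H1299, a human cell line described in the labels as lung adenocarcinoma. Members were the genes whose symbol is TNFRSF or TNFSF plus a suffix, TRAF plus a digit, or stands on a fixed list of relatives and adaptors such as FAS, LTBR, CD40, CD70, TRADD, FADD and RIPK1. Antisense RNAs and pseudogenes were left out. The authors' deposited table lists 46 such genes among 25287 genes. A further 13 genes that fit the symbols were not analysed here, namely TNF, FASLG, CD27, NGFR, TNFRSF4, TNFRSF6B, TNFRSF17, TNFRSF18, TNFSF8, TNFSF12, TNFSF13, TNFSF14 and TNFSF18. RNA was sequenced from 3 libraries of cells with a short hairpin RNA against ALDH18A1 and 3 libraries of cells with a control hairpin. The labels give the molecule as total RNA and the series as RNA-seq, but their library protocol names RIP-seq, so whether the counts are of total or of immunoprecipitated RNA is not settled. ALDH18A1 encodes P5CS, a mitochondrial enzyme of proline synthesis that the series title describes as an RNA-binding protein acting on translation. The labels do not give the number of hairpins or cell clones behind a group, nor whether libraries stem from independent cultures, and the p-values then cover only the spread between these libraries, which may be technical.

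Ligands of the TNF superfamily are mostly membrane-anchored proteins that bind, as trimers, receptors with cysteine-rich domains outside the cell. Some receptors carry a death domain, which gathers TRADD, FADD and RIPK1 and can start caspase-driven cell death, whereas others bind TRAF proteins directly. TRAF adaptors pass the signal to kinases that release NF-kappaB, and NF-kappaB in turn drives transcription of several of its own inhibitors and of TRAF1.

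Values of single libraries were not analysed here. The authors' deposited table gives for each gene a mean normalised count over libraries, a log2 fold change, its standard error (SE) and an adjusted p from DESeq2 (Benjamini-Hochberg). Which group is the numerator of that fold change is not stated. A gene above 0 is placed on the positive side and a gene below 0 on the negative one, and neither side is tied to a hairpin. ALDH18A1 itself, the hairpin's target, lay at -0.08 (SE 0.07, 95% interval -0.22 to 0.07) in the authors' deposited table. Its adjusted p was 0.471 (DESeq2), and it gave no direction. A knockdown of its RNA is thus not seen in these values. Whether any difference follows from loss of ALDH18A1 was not tested. Where a level is given for each side, it is implied by the deposited mean and fold change with equal group sizes assumed, and it carries no replicate error of its own. Keratin genes KRT8 (mean normalised count 18965) and KRT18 (14244) and the vimentin gene VIM (24591) were abundant in the authors' deposited table. The keratin genes KRT7 (16.9) and KRT19 (5.77) were low, as were the epithelial markers EPCAM (41.4), CDH1 (24.2) and SFTPB (4.49). NKX2-1, SFTPC and NAPSA, which mark lung epithelium and its tumours, were not analysed here.

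Of the 46 members, 18 lay on the positive and 11 on the negative side with an adjusted p under 0.05 (DESeq2), and 17 did not pass. Over all genes of the authors' deposited table, a share of 42.4% passed in either direction, 20.9% with positive and 21.5% with negative values. Calls depend on abundance. Among the 28 members with a mean count of at least 100, 13 passed on the positive and 11 on the negative side, against 34.1% and 39.9% of all genes at that level, where 74.1% passed in either direction. The members divided by role. Of 23 receptors, 14 passed on the positive and 2 on the negative side (median log2 fold change 0.74). Of 9 ligands, 3 passed on the positive and 0 on the negative side. Most ligands had a mean count under 100, where 15.8% of all genes passed in either direction. Of 14 adaptors, 1 passed on the positive and 9 on the negative side (median -0.48). The median over all genes of the authors' deposited table was 0.03.

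**Figure D1:**
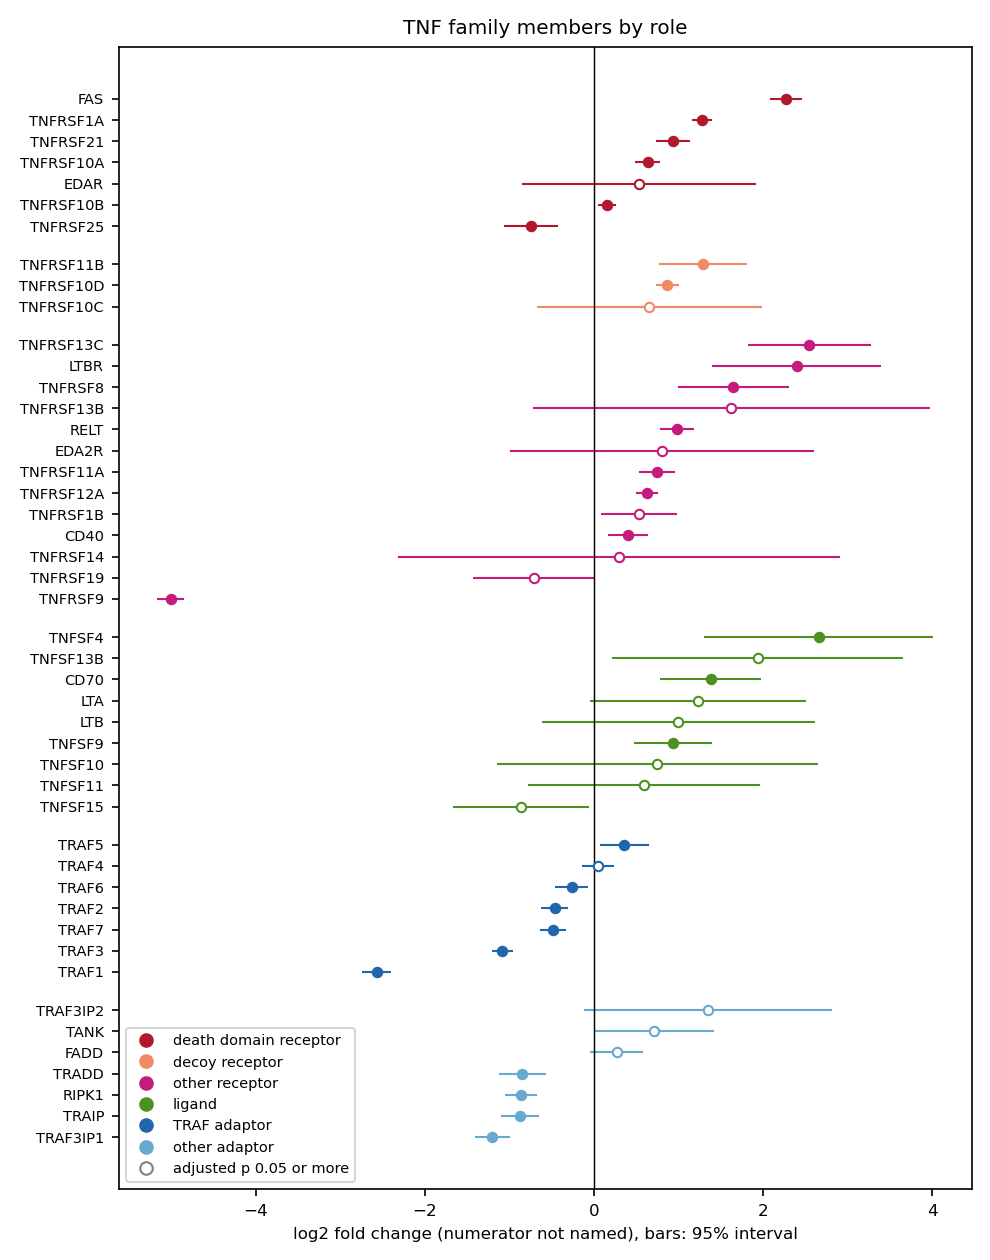
Log2 fold changes of the 46 members from the authors' deposited table, grouped by role, with 95% intervals from the SE; filled points have an adjusted p under 0.05, open points 0.05 or more, and the numerator of the fold change is not named. Most receptors and ligands lie right of 0, most adaptors left of 0, and TNFRSF9 (-5.00) lies far from every other member.

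Among called members, 8 had a log2 fold change of 1 or more and 4 had one of -1 or less, against 10.9% and 7.06% of all genes. The 4 negative members were TNFRSF9, TRAF1, TRAF3IP1 and TRAF3. On the positive side they were TNFSF4, TNFRSF13C, LTBR, FAS, TNFRSF8, CD70, TNFRSF11B and TNFRSF1A.

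Promoter sequences from RefSeq (GRCh38.p14; 250 bases before to 50 after a start) were matched for 35 members with 53 starts. A strict NF-kappaB site was sought on both strands as GGG, a purine, any base, A or T, 2 pyrimidines and CC. It occurred in a promoter of 7 of the 35 members (20%) and of 7.09% of all 27305 genes in that table. A gene counts when any of its starts matches, and those 27305 genes had 35116 starts. They were not limited to genes with a listed fold change, so the shares are only roughly comparable. Of the 7, TNFRSF9, TNFRSF25 and TRAF3 passed on the negative side and FAS on the positive side. LTA, LTB and TNFRSF14 did not pass. Members with no promoter examined were TNFRSF10A, TNFRSF10B, TNFRSF10D, TNFRSF11B, TNFRSF12A, TNFRSF13C, CD40 and CD70, which passed on the positive side. TRADD, which passed on the negative side, and TNFRSF10C and EDAR, which did not pass, were not examined either. The sides of the matches therefore leave out many positive members. The looser form, GGG, any 5 bases and CC, occurred in 26 members (74.3%) and in 61.7% of all genes. An AP-1 site, TGANTCA, which reads the same on both strands, occurred in 7 members (20%) and in 9.37% of all genes. A match describes letters and shows no binding.

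The stretches before the 5′-most RefSeq start of the members with the largest differences at high counts are shown from 5′ to 3′ on the gene's strand, with strict NF-kappaB matches and AP-1 matches in capitals. They end where more than 30 bases would lie in exons annotated by GENCODE, and TRAF3 is added for its match. TNFRSF9 is read from chr1:7940904-7941089 (minus strand), TRAF1 from chr9:120929172-120929421 (minus strand), TRAF3 from chr14:102777199-102777448 (plus strand), FAS from chr10:88990548-88990611 (plus strand) and TNFRSF1A from chr12:6342085-6342326 (minus strand).
TNFRSF9: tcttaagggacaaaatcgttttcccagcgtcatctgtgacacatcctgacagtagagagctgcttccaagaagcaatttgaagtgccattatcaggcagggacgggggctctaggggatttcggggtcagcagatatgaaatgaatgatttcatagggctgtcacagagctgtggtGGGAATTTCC
TRAF1: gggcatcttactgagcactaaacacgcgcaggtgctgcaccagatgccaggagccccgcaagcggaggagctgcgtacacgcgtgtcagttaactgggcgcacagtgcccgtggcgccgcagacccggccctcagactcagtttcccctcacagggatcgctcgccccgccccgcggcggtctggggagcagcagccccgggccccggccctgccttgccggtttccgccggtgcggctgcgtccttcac
TRAF3: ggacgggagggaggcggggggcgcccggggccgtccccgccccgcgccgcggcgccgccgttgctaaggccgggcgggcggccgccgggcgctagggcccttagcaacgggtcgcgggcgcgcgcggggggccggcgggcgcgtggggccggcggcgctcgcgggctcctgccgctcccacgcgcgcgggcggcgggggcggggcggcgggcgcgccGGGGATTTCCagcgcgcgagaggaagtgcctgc
FAS: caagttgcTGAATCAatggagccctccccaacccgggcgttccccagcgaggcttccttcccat
TNFRSF1A: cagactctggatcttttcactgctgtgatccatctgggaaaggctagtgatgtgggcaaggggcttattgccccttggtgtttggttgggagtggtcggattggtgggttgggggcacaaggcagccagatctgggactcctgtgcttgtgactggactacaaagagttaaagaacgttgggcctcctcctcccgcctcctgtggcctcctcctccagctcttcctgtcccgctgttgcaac

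In TNFRSF9 the match GGGAATTTCC lies at positions -74 to -65 from the start, and the opposite strand matches at -73 to -64, overlapping it. An AP-1 match, TGAGTCA, follows at -44 to -38, beyond the stretch shown. The RefSeq start of TNFRSF9 lies inside the gene annotated by GENCODE, whose 5′ end is at 7943165. The stretch shown therefore lies within that gene. TRAF3 carries GGGGATTTCC at -33 to -24. FAS has an AP-1 match at -242 to -236 of its first start, and its strict NF-kappaB match belongs to a later start. These letters were not found in the windows shown for TRAF1 and TNFRSF1A.

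TNFRSF9 encodes 4-1BB (CD137), a costimulatory receptor best known on activated T cells and NK cells, which signals through TRAF1 and TRAF2. It is located on chromosome 1 from 7915894 to 7943165 (GRCh38, minus strand). Its mean normalised count was 4334 in the authors' deposited table, higher than that of 94.1% of listed genes or equal to it. The implied counts were 261.9 on the positive and 8406 on the negative side. Its log2 fold change was -5.00 (SE 0.08, 95% interval -5.16 to -4.84), a 32.1-fold difference, and its adjusted p is listed as 0. Scaled by exon length it ranked 14th of the 14 receptors with a mean count of at least 100 on the positive side, and 4th on the negative side. In bulk RNA, fewer cells with a transcript and less of it per cell cannot be told apart. If the RNA was immunoprecipitated, a different recovery of the transcript cannot be told apart from these either.

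Markers of other cell types were examined as well, and some of them passed. PTPRC, which marks all leukocytes, had a mean count of 12.8 in the authors' deposited table, and implied counts of 9.19 on the positive and 16.4 on the negative side. T cell markers were listed for 3 of 6 genes, with summed implied counts of 15.2 and 14.3 on the positive and negative sides. NK cell markers were listed for 2 of 3 genes (25.9 and 26.5), B cell markers for 1 of 4 (35.2 and 6.70) and myeloid markers for 4 of 6 (108 and 117). Markers such as CD3D, CD3E, CD2, MS4A1, CD79B, NKG7, CD68 and FCGR3A were not analysed here. Among the listed ones, CD79A (2.40, adjusted p = 0.00020) and CD14 (2.33, adjusted p = 0.00018) passed on the positive side and CSF1R (-1.29, adjusted p = 0.0089) on the negative side (DESeq2, the authors' deposited table). Endothelial markers summed to 299.4 and 146.4 on the positive and negative sides. PECAM1 lay at 2.53 (adjusted p = 3.9e-18, DESeq2), whereas CDH5 (-0.26, adjusted p = 0.729) and VWF (-0.11, adjusted p = 0.833) did not pass. Fibroblast markers summed to 131.2 and 108.5. DCN lay at 2.54 (adjusted p = 1.7e-05, DESeq2), whereas the more abundant COL1A1 (mean count 95.8) lay at -0.17 and did not pass (adjusted p = 0.656). The part of these markers in the values of TNFRSF9 and the other members was not tested.

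FAS, the death receptor for FAS ligand, had a mean count of 1550 in the authors' deposited table, with implied counts of 2569 on the positive and 530.7 on the negative side. Its log2 fold change was 2.27 (SE 0.10, adjusted p = 2.8e-120). TNFRSF1A, the main receptor for soluble TNF, was the most abundant member by mean count, at 14614. Its implied counts were 20694 on the positive and 8534 on the negative side, with a log2 fold change of 1.28 (SE 0.06, adjusted p = 1.7e-99, from the authors' deposited table). Both are thus abundant death domain receptors with values above 1. TNFRSF21, the death domain receptor DR6, lay at 0.93 (SE 0.10, adjusted p = 1.5e-19, from the authors' deposited table). TNFRSF25, the death domain receptor DR3 for TNFSF15, lay at -0.75 (SE 0.16, adjusted p = 2.2e-05, DESeq2). It was the only receptor besides TNFRSF9 to pass on the negative side. Its exons share 104 bases with PLEKHG5 on the same strand (mean count 1633, log2 fold change -0.58), beside a mean count of 286.6 for TNFRSF25. They also share 383 bases with ESPN on the opposite strand (mean count 15.9, log2 fold change 0.08). The part of these overlaps in the value of TNFRSF25 was not tested. EDAR, an ectodysplasin receptor, had a mean count of 12.7 and did not pass (adjusted p = 0.621).

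The receptors for TRAIL, encoded by TNFSF10, are neighbours on the short arm of chromosome 8. The agonist receptor gene TNFRSF10B (DR5) had a mean count of 7638 and lay at 0.16 (SE 0.06, adjusted p = 0.0138, from the authors' deposited table). The other agonist receptor, TNFRSF10A (DR4), had a mean count of 2221 and lay at 0.64 (SE 0.08, adjusted p = 1.9e-16). TNFRSF10D, a decoy whose death domain is truncated, had a mean count of 4936 and lay at 0.87 (SE 0.07, adjusted p = 1.6e-35, from the authors' deposited table). The interval of TNFRSF10B, 0.05 to 0.26, lay below those of TNFRSF10A (0.49 to 0.78) and TNFRSF10D (0.73 to 1.00). Its call was lost when fold changes were shifted to equal totals (adjusted p = 0.664) or to a median of 0 over all genes (adjusted p = 0.0676). The membrane-anchored decoy gene TNFRSF10C had a mean count of 13.3 and did not pass (adjusted p = 0.498). TNFRSF11B, osteoprotegerin, a secreted decoy for RANK ligand and TRAIL, had implied counts of 193.6 on the positive and 79.2 on the negative side, a log2 fold change of 1.29 (SE 0.26, adjusted p = 4.6e-06). TRAIL itself (TNFSF10) was near the floor of the authors' deposited table, with a mean count of 7.11, and did not pass (adjusted p = 0.606).

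**Figure D2:**
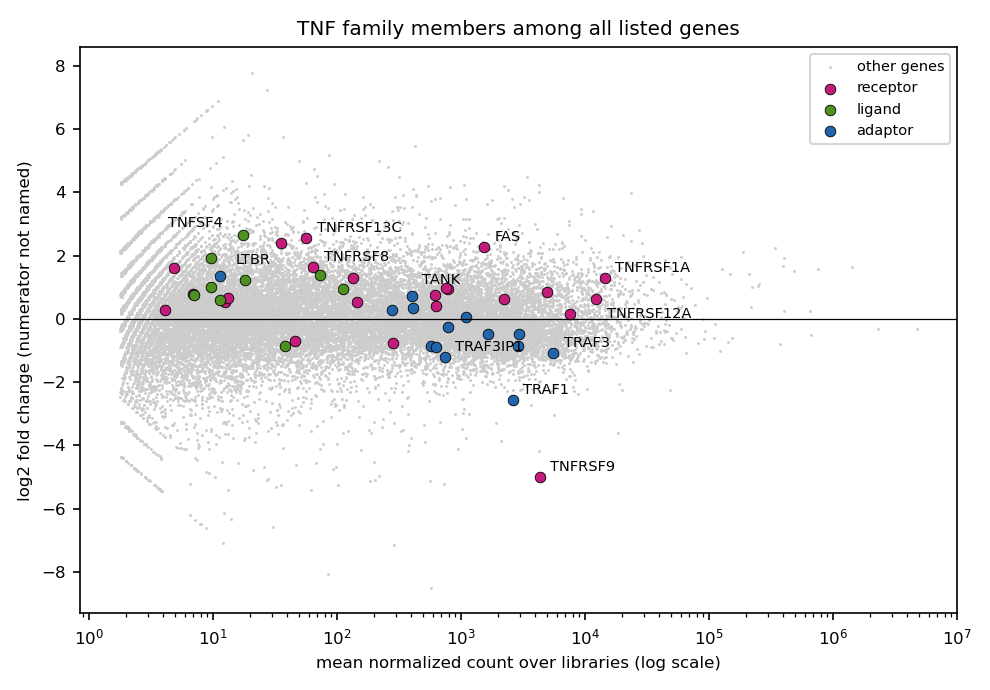
Log2 fold change (numerator not named) against the mean normalised count over libraries (log scale) for all genes of the authors' deposited table in grey and for receptors, ligands and adaptors in colour. TNFRSF9 and TRAF1 lie below the bulk of genes of similar abundance, FAS lies above it, and most ligands have mean counts under 100.

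Among receptors without a death domain, TNFRSF12A (Fn14, the receptor for TWEAK) had a mean count of 12411 and lay at 0.63 (SE 0.07, adjusted p = 2.3e-19, from the authors' deposited table). RELT lay at 0.98 (SE 0.10, adjusted p = 3.3e-20), TNFRSF11A (RANK, the receptor for RANK ligand) at 0.74 (SE 0.11, adjusted p = 8.9e-11) and CD40 at 0.40 (SE 0.12, adjusted p = 0.0032, from the authors' deposited table). The larger positive values belonged to receptors of low abundance. TNFRSF13C, the BAFF receptor of B cells, had implied counts of 96.8 on the positive and 16.6 on the negative side, with a log2 fold change of 2.55 (SE 0.37, adjusted p = 4.3e-11). LTBR, the lymphotoxin beta receptor, had implied counts of 59.96 and 11.4 on the positive and negative sides, with a log2 fold change of 2.40 (SE 0.51, adjusted p = 1.1e-05). TNFRSF8 (CD30) had implied counts of 98.0 and 31.3, with a log2 fold change of 1.65 (SE 0.33, adjusted p = 3.1e-06). All of these implied counts were below 100 per side. Exons of LTBR share 422 bases with SCNN1A on the opposite strand. SCNN1A lay at 1.22 with a mean count of 157 in the authors' deposited table, beside 35.7 for LTBR. The sources used here do not say whether reads were counted by strand. The same limit holds for FADD, with 54.9% of its exon length shared with an antisense RNA, and for FAS, with 8.93% shared with ACTA2. It also holds for TRAF7, with 21.2% shared with CASKIN1. CASKIN1 had a mean count of 41.3 and lay at 0.78, beside 2959 and -0.49 for TRAF7. In all, exons of 19 members overlap another annotated gene, on either strand. TNFRSF1B, the second TNF receptor, lay just outside the threshold at 0.53 (SE 0.23, adjusted p = 0.0512). TNFRSF19 (-0.71, adjusted p = 0.107), TNFRSF13B (mean count 4.84), EDA2R (6.90) and TNFRSF14 (4.11) did not pass in the authors' deposited table.

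Per kilobase of merged exon length, TNFRSF12A stood highest among receptors at 6716 normalised counts, followed by TNFRSF1A (3649), TNFRSF10B (1481), TNFRSF10D (1395) and TNFRSF10A (752.7). The order of TNFRSF12A and TNFRSF1A was the same on both sides, whereas TNFRSF10D ranked above TNFRSF10B on the positive side only, with implied levels of 1801 and 1561 per kilobase there and 988.6 and 1401 on the negative side. FAS ranked 6th on the positive side, at 603.9 per kilobase, and 9th on the negative side, at 124.8. TNFRSF9 stood at 41.4 per kilobase on the positive and 1328 on the negative side. No error can be given for these implied levels, so neighbours in the order are not shown to differ.

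**Figure D3:**
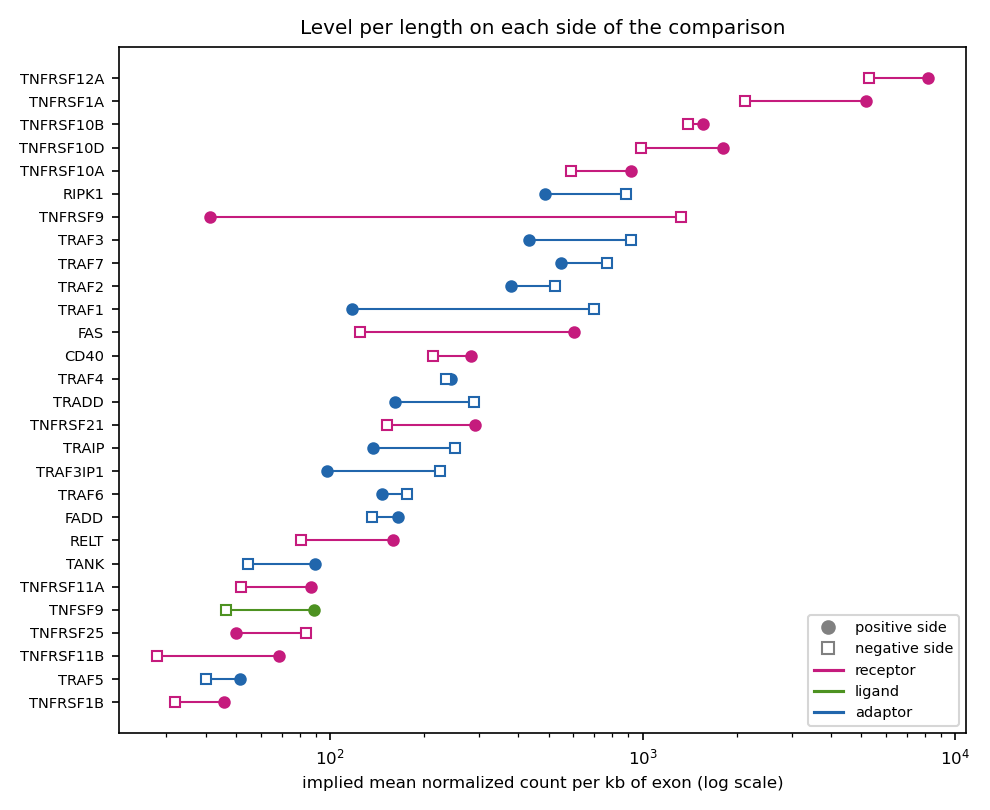
Implied mean normalised count per kilobase of exon (log scale) on the positive (filled circles) and negative side (open squares) for the 28 members with a mean count of at least 100, ordered by their mean level. Lines join the sides of a gene, and the longest lines belong to TNFRSF9, TRAF1 and FAS.

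Ligand genes had low counts. Of the 9 listed ligands, TNFSF9 (4-1BB ligand) was the most abundant, with a mean count of 113.1 and implied counts of 148.6 on the positive and 77.6 on the negative side. Its log2 fold change was 0.94 (SE 0.24, adjusted p = 0.00026, from the authors' deposited table), so the ligand and its receptor TNFRSF9 lay on opposite sides. CD70, which binds CD27, had implied counts of 105.4 and 40.5 on the positive and negative sides and a log2 fold change of 1.38 (SE 0.31, adjusted p = 2.8e-05). TNFSF4 (OX40 ligand), which binds TNFRSF4, had implied counts of 30.1 and 4.77 and a log2 fold change of 2.66 (SE 0.69, adjusted p = 0.00042). These genes were the 3 ligands that passed in the authors' deposited table. TNFSF13B (BAFF, 1.93, adjusted p = 0.0633) and TNFSF15 (TL1A, -0.86, adjusted p = 0.0776) lay just outside the threshold. TNFSF15 was the only ligand below 0, and its receptor TNFRSF25 lay below 0 as well. LTA, LTB, TNFSF10 and TNFSF11 had mean counts between 7.11 and 18.1 and did not pass. Among the 18 members with a mean count under 100, 16 (88.9%) had a fold change above 0, against 55.1% of all 13743 genes at that level. Of these 18, 5 passed (27.8%), all on the positive side. Among all genes at that level, 15.8% passed in either direction and 9.76% on the positive side. CD40LG and EDA, ligands of CD40 and of EDAR and EDA2R that are no members, did not pass (adjusted p = 0.326 and 0.343, DESeq2).

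CD70 and TNFSF9, 47.3 kb apart on chromosome 19, and TNFRSF1A and LTBR, 32.9 kb apart on chromosome 12, all passed with positive values in the authors' deposited table. LTA and LTB, 6.2 kb apart on chromosome 6, lay above 0 without passing. On chromosome 1, TNFRSF25 (6460786 to 6466195) and TNFRSF9 passed on the negative side, but they lie 1449.7 kb apart. Also there, TNFRSF8 (12063377 to 12144207) passed on the positive side, and TNFRSF1B, 22.8 kb from it, lay above 0 without passing.

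TRAF1 had the second largest difference among members on the negative side. It encodes an adaptor without the RING domain of its relatives, which pairs with TRAF2 at receptors such as 4-1BB. On chromosome 9, from 120902393 to 120929173 (GRCh38), it had a mean count of 2637 in the authors' deposited table. The implied counts were 760.4 on the positive and 4513 on the negative side, with a log2 fold change of -2.57 (SE 0.09, adjusted p = 4.4e-185). TRAF3, a ubiquitin ligase adaptor that keeps the kinase of the alternative NF-kappaB pathway (MAP3K14) in check, had implied counts of 3569 on the positive and 7567 on the negative side. Its log2 fold change was -1.08 (SE 0.07, adjusted p = 3e-60, from the authors' deposited table). TRAF2 lay at -0.47 (SE 0.08, adjusted p = 4.4e-08), TRAF7 at -0.49 (SE 0.08, adjusted p = 3.6e-09) and TRAF6 at -0.26 (SE 0.10, adjusted p = 0.0205, from the authors' deposited table). TRAF5 was the only adaptor to pass above 0 (0.36, SE 0.15, adjusted p = 0.0395), and it was no longer called with fold changes shifted to equal totals (adjusted p = 0.203) or to a median of 0 over all genes (adjusted p = 0.068). TRAF4 lay at 0.05 (95% interval -0.15 to 0.24, adjusted p = 0.775), turning to -0.07 with equal totals.

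Among the other adaptors, RIPK1, the kinase that carries the signal of TNF receptor 1 to survival or death, lay at -0.86 (SE 0.10, adjusted p = 1.3e-18, from the authors' deposited table). TRADD, which docks on the death domain of TNFRSF1A, lay at -0.85 (SE 0.14, adjusted p = 9.9e-09). Both thus lay opposite TNFRSF1A. FADD, which links FAS and the TRAIL receptors to caspase-8, did not pass (0.27, 95% interval -0.04 to 0.58, adjusted p = 0.178). TRAF3IP1, a protein of transport within cilia, lay at -1.20 (SE 0.11, adjusted p = 3.9e-29) and TRAIP, a ubiquitin ligase of the replication stress response, at -0.88 (SE 0.12, adjusted p = 2.2e-13, from the authors' deposited table). TRAF3IP2, the adaptor Act1 of interleukin 17 receptors, had a mean count of 11.4 and did not pass (adjusted p = 0.144). TANK, which binds TRAF proteins and the kinase TBK1, lay at 0.71 in the authors' deposited table with an adjusted p of 0.105. The authors' own call of up for TANK rests on an unadjusted p of 0.0494 (DESeq2). Their calls reach to an unadjusted p of 0.0499 over all genes. TNFRSF1B and TNFSF13B were likewise called up and TNFSF15 down by the authors, though none of them passed after adjustment.

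TANK stood apart in precision. Its SE of 0.36 in the authors' deposited table was 2.57 times the median SE of the 200 genes nearest in mean count (0.14), a ratio that 99.6% of listed genes did not exceed. RIPK1 came next among members, at 1.32 times the median of its neighbours. For the remaining 44 members the ratio ran from 0.88 (TNFRSF10B) to 1.19 (TNFRSF9). The spread between libraries behind the SE of TANK was not analysed here, and its cause was not tested.

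**Figure D4:**
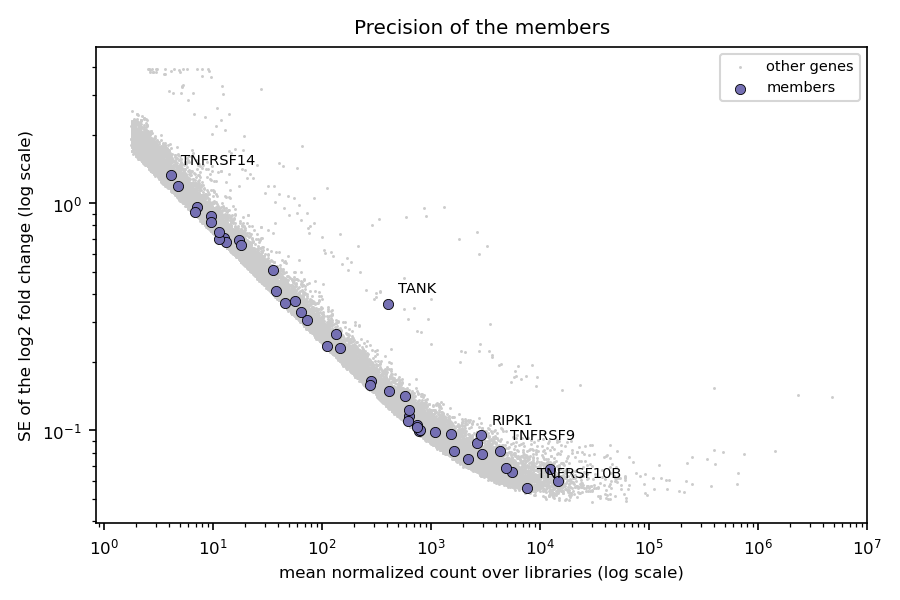
SE of the log2 fold change against the mean normalised count over libraries, both on log scales, for all genes of the authors' deposited table in grey and for the 46 members in purple. TANK lies above the band of genes of similar abundance, and the other members lie within or close to it.

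Genes that act downstream of the receptors were examined as 3 lists, against the shares of 34.1% positive and 39.9% negative among all genes whose mean count reached 100. With a mean count of 1000 or more, those shares were 33.2% and 50.0%. Of 16 NF-kappaB subunits and inhibitors, 1 passed on the positive and 12 on the negative side, and the median in the authors' deposited table was -1.40, beside -0.07 for all genes at 100 or more. All 16 had a mean count above 100. Genes of inhibitors spanned a wide range in the authors' deposited table, with NFKBIA at -2.53 (SE 0.11), TNIP1 at -2.23 (SE 0.06), CYLD at -2.09 (SE 0.13), TNIP2 at -1.72 (SE 0.06), NFKBIE at -1.40 (SE 0.08) and NFKBIB at -0.75 (SE 0.08). The subunit genes NFKB2 (-1.44, SE 0.06), RELB (-1.59, SE 0.07), NFKB1 (-1.40, SE 0.07) and RELA (-1.22, SE 0.06) lay below -1 as well, and REL did not pass (-0.04, adjusted p = 0.908). The deubiquitinase gene TNFAIP3 (A20) lay at -2.07 (SE 0.14). NFKBID was the only gene of this list to pass above 0 (0.86, SE 0.15), and OTULIN (0.17) and NFKBIZ (-0.18) did not pass. Several of these values were known when the list was drawn up, so its direction is not independent evidence.

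Components of the receptor complex and its kinases showed smaller values. Of 22 listed, 2 passed on the positive and 15 on the negative side, and their median was -0.61 in the authors' deposited table. The same shares serve as background, although IKBKE and MAP3K8 had mean counts below 100 (49.2 and 59.1). OTUD7B, a deubiquitinase that stabilises TRAF3, lay at -1.20 (SE 0.07), the kinase gene MAPK8 (JNK1) at -1.19 (SE 0.10), TAB2 at -0.91 (SE 0.07), BIRC2 (cIAP1) at -0.90 (SE 0.07), TBKBP1 at -0.90 (SE 0.08) and MAP3K7 (TAK1) at -0.87 (SE 0.07). MAP3K5 (0.63, SE 0.19) and IKBKE (0.94, SE 0.40) were the positive ones in the authors' deposited table. In the death arm 3 of 9 passed on the positive and 4 on the negative side (median -0.27), which is near the shares over all genes. MLKL, the executor of necroptosis, lay at 1.51 (SE 0.19) and BID at 0.64 (SE 0.09), whereas DAP3 (-0.63, SE 0.06) and the caspase-8 inhibitor gene CFLAR (-0.27, SE 0.08) lay below 0 there. CASP8 lay at 0.25 (SE 0.09, adjusted p = 0.0159). RNF31 and RIPK3 were not analysed here. Over the 47 listed signalling genes, 6 passed on the positive and 31 on the negative side (median -0.71). At a mean count of at least 100 there were 44, with 5 positive and 31 negative calls, against the 34.1% and 39.9% of all genes.

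**Figure D5:**
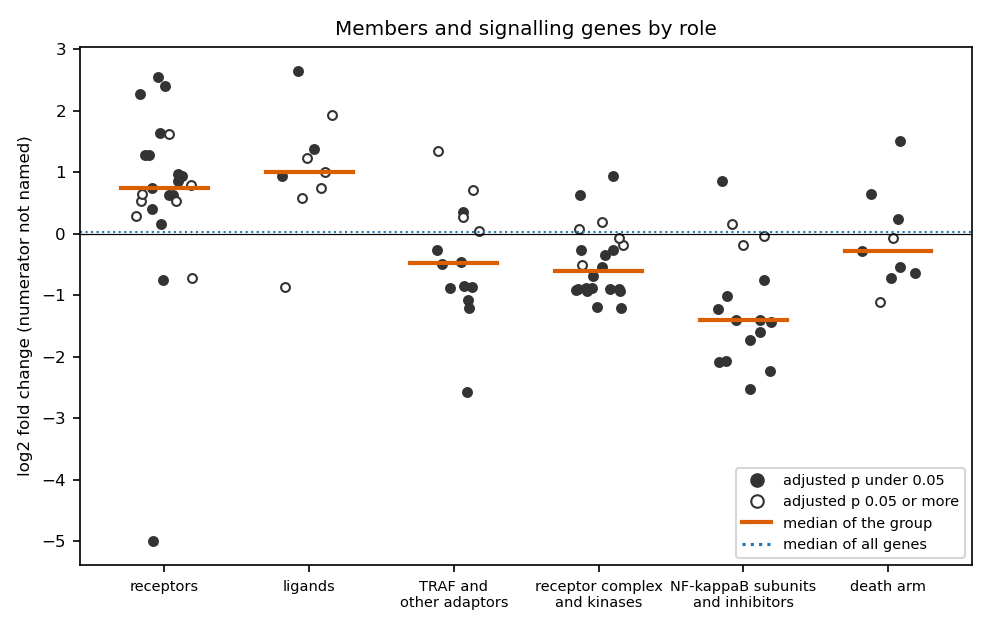
Log2 fold changes (numerator not named) of receptors, ligands and adaptors among the members and of 3 lists of signalling genes from the authors' deposited table; filled points have an adjusted p under 0.05, open points 0.05 or more, and orange bars are medians. Medians run from 1.00 for ligands and 0.74 for receptors to -0.48 for adaptors and -1.40 for NF-kappaB subunits and inhibitors. The ligand median rests on low counts (median mean count 17.4), and 6 of the 9 ligands did not pass. The dotted line marks the median of all genes (0.03).

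Most receptors and ligands span the membrane and the adaptors do not, so the division by role was set beside the same division over all coding genes. A hydrophobic segment (19 residues whose mean hydropathy on the Kyte-Doolittle scale reaches 1.6) was found in the protein of 31 members and not in that of 15, the 14 adaptors and osteoprotegerin. Of the 14 members with a segment and a mean count of at least 100, 11 passed on the positive and 2 on the negative side. Over all 3256 coding genes of that kind the authors' deposited table gave shares of 55.0% positive and 24.2% negative calls. Of the 14 members without a segment at that level, 2 passed on the positive and 9 on the negative side, against 23.3% and 50.0% of 6698 genes. The medians were 0.69 for these members with a segment, beside 0.39 for all such genes, and -0.48 for those without, beside -0.25. The opposite directions of receptors and adaptors were thus also those of coding genes with and without such a segment in these data. TNFRSF9 and TNFRSF25 were the exceptions among the abundant members with a segment. What part this property has in the values of the members was not tested.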

How the data were processed

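RNA of 6 NCI-H1299 libraries was sequenced, and the labels give total RNA but name RIP-seq in the library protocol. The submitters' processing notes name fastp (0.23.2), STAR (2.7.10a), featureCounts, DESeq2 and the build hg38. No source used here states the strand setting. The file is a single comparison of 25289 rows, or 25287 genes after later rows of a repeated symbol were dropped. Its mean normalized count is a signal that the authors averaged over libraries, per the file headers. The fold change and SE are the authors' DESeq2 estimates on a log2 scale. The deposited Wald statistic is a score equal to fold change over SE, and each p-value, raw or adjusted, was deposited by the authors. The header names no numerator. Library depth is unknown, since no values per library were analysed here, and refits that need them were not run. Precision follows abundance, with a median SE of 0.513 (mean counts from 10 to 100), 0.152 (100 to 1000) and 0.0778 (1000 or more).

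Genes with an adjusted p under 0.05 over the whole table were called, with no new test per gene. Levels per side were derived from the mean and fold change. Exon lengths, coordinates and coding sequences came from GENCODE release 29 (GRCh38), matched by symbol, and covered all 46 members. Every member called with a log2 fold change at or beyond 1 in size was named, and others by role. Some genes of the lists enter the counts and are not reported here by name. Members, lists and tests were chosen with earlier results of these data known. Recomputed Wald tests with shifted fold changes were tested on simulated data. The software was Python 3.11.15 with scipy 1.17.1, pandas 2.3.3 and numpy 2.4.6.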

Additional observations from a re-analysis of the deposited data

How the results depend on the processing

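No paired analysis was possible because the file holds no values per library, and for the same reason leaving out replicates and refitting with edgeR were not run. No readthrough gene of the family was listed, so adding them could not be tried. When a log2 fold change of 1 or more in size was also required, counts on the positive and negative sides were 8 and 4 for members, 6 and 1 for receptors, 0 and 3 for adaptors, 1 and 13 for signalling genes, and 2765 and 1785 for all genes. The positive adaptor calls numbered 0 with an adjusted p under 0.01, 0 with a shift to a median of 0 over all genes, 0 with equal totals, 2 with an unadjusted p and 4 with a shift to a median of 0 over abundant genes (mean count 1000 or more). Ligand calls on the negative side numbered 1 with equal totals and 1 with an unadjusted p, and those on the positive side numbered 1 when the mean count had to reach 100. Leaving out the 19 members whose exons overlap another annotated gene, an alternative chosen after seeing the data, left 27 members. Of these, 11 passed on the positive and 7 on the negative side, against 20.9% and 21.5% of all genes. Among the 11 receptors left, 7 passed on the positive and 1 on the negative side.

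The shifts subtract 0.12 (equal totals), 0.03 (all genes) and -0.19 (abundant genes) from every log2 fold change. The share of positive calls over all genes was 49.3% as deposited, 42.0% with equal totals and 61.4% with the shift over abundant genes. TRAF4 turned to -0.0725 with equal totals and ALDH18A1 turned to 0.11 with the shift over abundant genes, and neither passed there. With that shift TRAF6 (-0.08, adjusted p = 0.594) was no longer called. TRAF5 and TNFRSF10B lost their calls as given above. The 12 members called at or beyond 1 kept call and sign in all alternatives that retained the gene.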
